A study of Mus musculus with 6 samples.

Results

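The MYC network is a set of helix-loop-helix leucine zipper transcription factors that share the partner MAX. Accessible chromatin was examined here at 8 of its genes in mouse CD8+ T cells, the cytotoxic lymphocytes. The genes were Myc, Max, Mxd1, Mxd4, Mxi1, Mnt, Mlx and Mga. A region of the count matrix was taken when it overlapped the span of one of these genes, or when the nearest end of any protein-coding gene belonged to one of them and lay within 50 kb. This gave 18 of the 24605 regions, and all 18 passed the filter on low counts that left 24316 tested regions. The regions were thus selected on 1 measured property, presence in the matrix, and every region of the matrix had a peak in at least 2 of the 6 libraries. The 8 genes were put together with earlier results known, among them the gain at Mxd1, so that gain is described without a test.

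The study addressed the action of the saturated fatty acid palmitate on the function of these cells. All 6 libraries came from wild-type cells taken, per the labels, from mouse pancreas, spleen and lymph nodes and kept in T cell medium, with 48 hours of treatment. The treatment label is palmitate (100 µM) for 3 libraries and control for 3. The vehicle of the controls and the age, sex and strain of the animals are not stated. Each library began with 50000 cells sorted by FACS and was made by ATAC-seq, in which the Tn5 transposase cuts open DNA, so that the reads in a region measure its accessibility. Nothing says whether the numbered replicates were separate animals or cultures. The p-values therefore set the difference between the groups against the spread among these libraries within a group, and that spread may be only technical.

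MYC binds DNA as a pair with MAX at the E-box CACGTG and activates genes of ribosome synthesis, metabolism and cell division. MXD1, MXD4, MXI1 and MNT also pair with MAX, bind the same sequence and recruit the SIN3 corepressor with histone deacetylases. MLX is the partner of the glucose-sensing factors MLXIP and MLXIPL and of some MXD proteins, and MGA joins MAX in a Polycomb complex. In T cells antigen raises MYC, which drives growth and the uptake of glucose and amino acids, while MXD proteins mark cells that leave the cycle.

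Libraries held 2219136 to 3089230 counts in regions. On the first principal component of all regions (52.8% of the variance) the groups separated, and control 2, at -26.4 against -42.6 and -37, lay nearest to the palmitate libraries. The CD8 T cell markers had a gene-end region for 8 of 10 genes, Cd8a and Cd3e among them. Their summed level was 346 to 385 CPM in control and 329 to 388 in palmitate. CPM are counts divided by the product of library size and that library's TMM scaling factor, then multiplied by a common constant. The factors were 1.03 to 1.05 in control and 0.953 to 0.971 in palmitate, so CPM differences between the groups include them. Of 30 markers of other cell types 10 had a gene-end region, and Cd4, Lyz2, Ncr1, Gata1 and Prss1 were among those with none. Klf1 of the erythroid and Cela1 of the pancreatic list did have one, at 40.9 and 38.8 CPM in control. Cd8a stood at 26.9 and Cd8b1 at 79.4 CPM there. Summed levels in control and palmitate were 37.9 to 42.7 and 39.4 to 39.9 CPM for the erythroid list (1 of 3 genes). They were 48.2 to 56.2 and 46.1 to 58.7 for the pancreatic list (2 of 6), and 22 to 27.9 and 19.2 to 26.5 for the fibroblast list (1 of 3). The summed level was 9.32 to 15.3 CPM in control and 11.1 to 22.4 in palmitate for the B cell list (1 of 6 genes), and 18.7 to 28.9 and 24.8 to 32.3 for the myeloid list (3 of 6). It was 34.9 to 51.4 and 46.5 to 73.4 CPM for the CD4 list, of which only Zbtb7b had a region, and 25.7 to 26.9 and 30.6 to 35.3 for the NK list, of which only Eomes did. Among these markers Zbtb7b and Itgam, a myeloid integrin, were higher (log2 fold change 0.48 and 0.91, edgeR adjusted p 0.0121 and 0.0151) and Thy1, a T cell surface protein of the CD8 list, was lower (-0.55, 0.0108). Eomes did not pass (edgeR adjusted p 0.092). The part of these cell types in the results was not tested.

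The promoters carry the sequence that the network itself binds, and are shown for that reason. RefSeq start windows (GRCm38.p6, 250 bases before to 50 after a gene's start) were matched for 7 of the 8 genes, in 9 windows. The canonical E-box CACGTG, which reads the same on both strands, stood in the windows of 4 of these 7 genes: Max, Mxd4, Mnt and Mlx. It stood in 7.15% of all 32851 RefSeq windows, and in 11.2% of the 10530 windows that overlapped a tested region. Counted per gene, as for the network, these were 2187 of 27025 genes and 1109 of 9228 genes. The 4 sequences run 5′ to 3′ in the direction of transcription, with the E-box in capitals. They end at the base before the start, except that of Max, which goes 20 bases past it because its E-box begins 3 bases before the start and crosses it.
Mxd4 (mm10, chr5:34187711-34187960, minus strand): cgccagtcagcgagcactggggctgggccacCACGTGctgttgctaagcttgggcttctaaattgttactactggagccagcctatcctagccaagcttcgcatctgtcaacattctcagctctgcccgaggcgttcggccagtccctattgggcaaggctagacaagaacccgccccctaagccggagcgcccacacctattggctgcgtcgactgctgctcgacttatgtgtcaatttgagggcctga
Mnt (mm10, chr11:74830674-74830923, plus strand): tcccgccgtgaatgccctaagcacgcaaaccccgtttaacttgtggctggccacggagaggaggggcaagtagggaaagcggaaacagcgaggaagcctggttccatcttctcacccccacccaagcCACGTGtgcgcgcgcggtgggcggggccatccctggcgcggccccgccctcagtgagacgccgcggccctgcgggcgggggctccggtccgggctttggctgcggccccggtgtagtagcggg
Mlx (mm10, chr11:101087040-101087289, plus strand): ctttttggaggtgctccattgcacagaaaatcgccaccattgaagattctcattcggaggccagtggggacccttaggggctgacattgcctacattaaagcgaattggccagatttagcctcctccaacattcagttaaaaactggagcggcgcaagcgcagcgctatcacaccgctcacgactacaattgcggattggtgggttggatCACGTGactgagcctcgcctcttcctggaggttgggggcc
Max (mm10, chr12:76962229-76962498, minus strand): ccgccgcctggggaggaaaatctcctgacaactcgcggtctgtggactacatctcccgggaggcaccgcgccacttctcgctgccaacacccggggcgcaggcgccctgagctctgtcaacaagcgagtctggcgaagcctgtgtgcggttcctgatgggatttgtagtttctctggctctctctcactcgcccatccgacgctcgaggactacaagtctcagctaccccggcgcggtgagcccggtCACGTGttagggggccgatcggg

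The Mxd1 window held neither CACGTG nor any E-box of the looser form CANNTG, which includes CACGTG and stood in 72.3% of all windows. It is printed because the Mxd1 start had the largest gain in log2 fold change of the 18 regions with TMM scaling (with trended offsets 4 others were above it). Its 250 upstream bases are 78.4% G and C, and the GC box GGGCGG, the site of SP and KLF factors, occurred 6 times. This motif was searched on both strands (as GGGCGG or CCGCCC), counting overlaps, after the sequence had been seen. At least 1 GC box stood in 35.7% of all windows and at least 6 in 1.35%, against 69.6% and 3.25% of the windows that overlapped a tested region. In the sequence the capitals mark the GC boxes, of which the last 2 overlap.
Mxd1 (mm10, chr6:86669160-86669409, minus strand): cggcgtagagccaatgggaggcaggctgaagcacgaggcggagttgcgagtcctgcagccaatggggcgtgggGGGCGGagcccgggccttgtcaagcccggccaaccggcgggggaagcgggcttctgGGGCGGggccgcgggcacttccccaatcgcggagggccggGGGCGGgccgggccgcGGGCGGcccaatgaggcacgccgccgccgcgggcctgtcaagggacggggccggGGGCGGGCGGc

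With TMM scaling, 3 network regions were more accessible in palmitate than in control and 2 were less. The Mxd1 start, whose gain was known beforehand, stays out of this count. The edgeR quasi-likelihood test was run over all regions with a threshold of 0.05 on the adjusted p. By it 3 of these 17 were higher and 2 lower, where the background was 11.9% higher and 12.7% lower of all tested regions, so neither share stood far from it. The 3 higher ones were the starts of Mxd4 and Mnt and a region inside Mnt, genes of repressors. The 2 lower ones were an element inside Max and one beside Mxd1. None of the 4 Myc regions passed. The median log2 fold change of the 17 was 0.14, against -0.05 over all tested regions.

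Strength has to be read with these counts, because strong regions tended to rise in this series. The 3 higher regions and the Mxd1 start belonged to the 6 of the network in the top decile of strength, where 70.5% of all regions were higher and 0.411% lower. Fitting offsets per library as a smooth function of strength (trended offsets) left 0 of the 17 higher and 1 lower, where 2.11% and 4.4% of all tested regions were. In the top decile these shares were 2.34% and 3.41%. With these offsets the log2 fold changes of the Mxd4 start, the Mnt start and the higher region inside Mnt turned to -0.08, -0.07 and -0.01. The median of the 17 was 0.0003, against 0.011 over all tested regions. The element inside Max was the region that passed under both scalings.

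**Figure D1:**
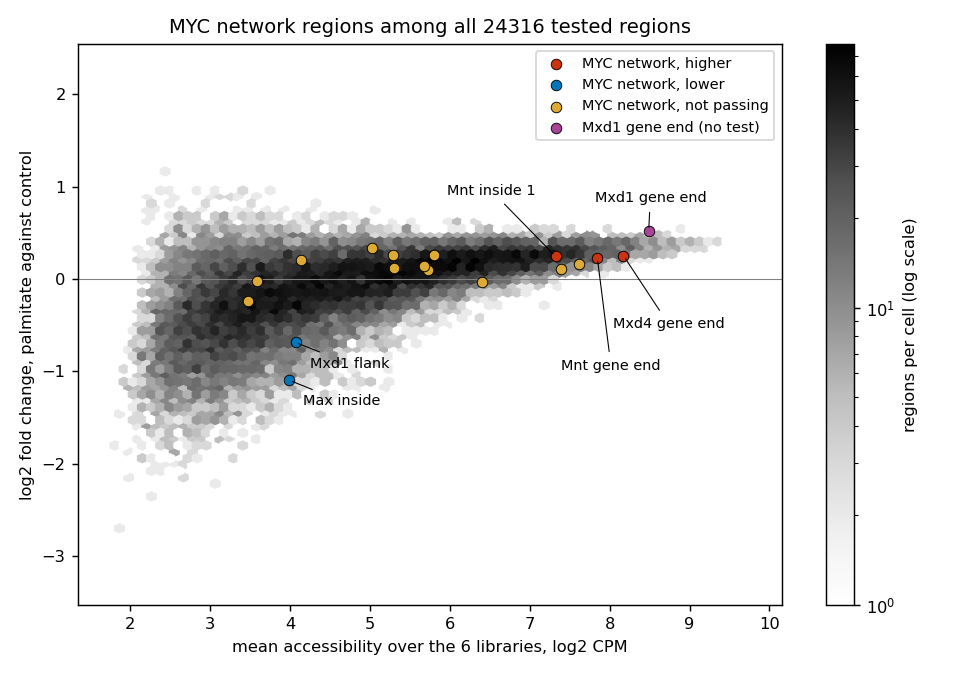
Log2 fold change (palmitate against control, TMM scaling) against mean accessibility in log2 CPM for all 24316 tested regions, shaded by the number of regions per cell. Circles are the 18 network regions, red where higher (3), blue where lower (2), yellow where the test was not passed (12) and purple for the Mxd1 gene end, which has no test. The cloud bends upward with strength, and the higher regions of Mxd4 and Mnt lie within it at its strong end, with Mxd1 at its upper edge.

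Open chromatin over the gene starts differed widely between members. Per kb of region, the control level was 543 ± 6 CPM (mean ± SD, n = 3 throughout) at Mxd1, 502 ± 21.7 at Mxd4, 235 ± 13 at Max and 213 ± 5.54 at Mnt. It was 126 ± 17.2 CPM per kb at Myc, 103 ± 4.58 at Mxi1, 67.3 ± 10.8 at Mlx and 64.2 ± 10.1 at Mga. In control, the neighbours in this order that overlapped between libraries were Myc with Mxi1 and Mlx with Mga. In palmitate the overlapping neighbours were Max with Mnt (253 ± 16.1 and 249 ± 10.8 CPM per kb) and Myc with Mxi1 (123 ± 5.13 and 123 ± 9.5). The widths are those of the deposited regions, and the region meant for each gene is the one over its RefSeq start, or at the lower-coordinate end for Myc.

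**Figure D2:**
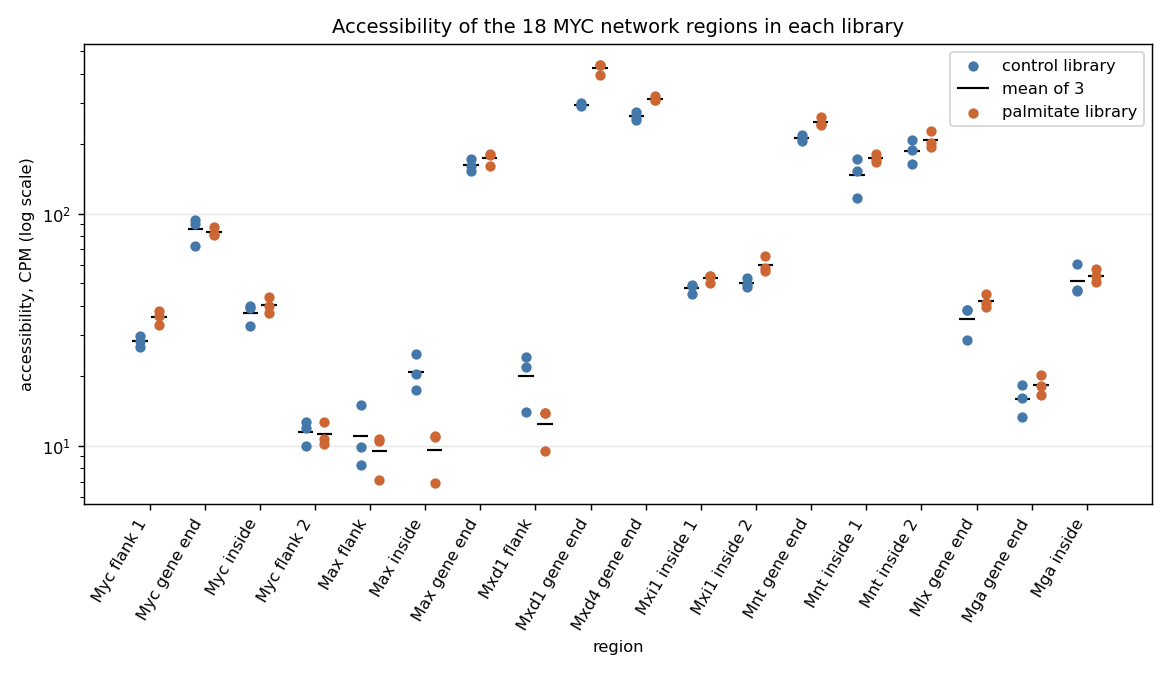
Accessibility in CPM (log axis) of the 18 regions, 3 control (blue) and 3 palmitate libraries (orange) each, with bars at the means. "Gene end" is a region within 1 kb of an end of the gene, "inside" one farther within its span and "flank" one outside it, numbered along the chromosome. The groups separate at Mxd1 on both sides, upward at the gene end and downward at the flank, and downward at the region inside Max. They also separate upward at Myc flank 1, the regions inside Mxi1 and the gene ends of Mxd4, Mnt and Mlx, but not at the Myc gene end.

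MYC itself is the activating member, and its gene lies on chromosome 15 (61985341 to 61990361) with 4 regions. The region over its lower-coordinate end (61984982 to 61985662) had 94.1, 72.2 and 90.1 CPM in control (libraries 1, 2 and 3 in this order, here and below) and 81.6, 81.2 and 87.4 in palmitate. The palmitate libraries lay inside the range of the controls. The log2 fold change was -0.03 ± 0.097 (SE; 95% interval -0.23 to 0.17, edgeR adjusted p 0.867), so a change of the size seen at Mxd1 lies outside the interval. With trended offsets it was -0.20 (adjusted p 0.203), and it passed as lower in 1 trended fit, that without control 2 (adjusted p 0.03, log2 fold change -0.31).

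Upstream of that end, 1.77 kb away, a narrow region of 197 bp (61983374 to 61983571) had 28.3, 26.6 and 29.6 CPM in control and 38.2, 33 and 36 in palmitate. Here every palmitate library lay above every control. The log2 fold change was 0.34 ± 0.15 (SE; 95% interval 0.04 to 0.64) and missed the threshold (edgeR adjusted p 0.0868). Over 21 alternative fits at that threshold it ranged from 0.23 to 0.42, the adjusted p from 0.0589 to 0.31, and none passed. The region within the gene (61986958 to 61987467) went from 37.3 ± 4.08 to 40.3 ± 3.04 CPM. The region 47.4 kb beyond the other end (62037750 to 62038216), which overlaps the non-coding gene Pvt1, stood at 11.5 ± 1.37 and 11.2 ± 1.22 CPM. Neither passed (edgeR adjusted p 0.562 and 0.95).

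MAX, the shared partner, is encoded on chromosome 12 (76937269 to 76962323). Its start region (76961995 to 76962682), which holds the E-box across the start, had 153, 171 and 160 CPM in control and 161, 181 and 179 in palmitate. The groups overlapped, and the log2 fold change of 0.11 ± 0.072 (SE) did not pass (edgeR adjusted p 0.298). With trended offsets it was -0.16 (adjusted p 0.165).

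The element inside Max, 11.6 kb from the nearest end (76950355 to 76950679), fell. Raw counts were 57, 52 and 60 in control and 28, 32 and 18 in palmitate, or 24.8, 17.3 and 20.4 against 11, 10.9 and 6.9 CPM. All 3 palmitate libraries lay below all controls, and palmitate 3, the lowest, was the 1 library whose peak list lacks it. The log2 fold change was -1.10 ± 0.23 (SE; 95% interval -1.57 to -0.62, edgeR adjusted p 0.000866). It passed in 15 of 15 other fits (adjusted p 0.000135 to 0.0173). With trended offsets it was -0.90 ± 0.23 (SE), and with these offsets and a library left out it passed in 3 of 6 fits, failing without control 1 (0.114), control 3 (0.0802) or palmitate 3 (0.117). Of all tested regions in its decile of strength, the fifth, 15.3% were lower with TMM and 5.59% with trended offsets. Of all regions inside genes 19.6% were lower and 4.3% higher with TMM, and 6.37% and 1.92% with trended offsets. Beside Max, 4.03 kb from its end, a weak flank (76932595 to 76933238) had 11 ± 3.5 CPM in control and 9.46 ± 2.05 in palmitate and did not pass (edgeR adjusted p 0.564).

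MXD1 is a MAX partner that represses MYC targets in differentiating and resting cells. Its start region on chromosome 6 (86669113 to 86669655), which contains the GC-rich promoter printed above, had 292, 293 and 298 CPM in control and 436, 437 and 395 in palmitate. The controls lay close together and every palmitate library stood far above them. The fitted fold was 1.43 (log2 fold change 0.52 ± 0.059, SE). With trended offsets it was 0.17 ± 0.054 (SE) on the log2 scale. It was positive in all 21 alternative fits, from 0.13 to 0.57.

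The Mxd1 flank moved the other way. This region (86644877 to 86645597) lies 1.45 kb beyond the end of the gene away from the start and had 21.8, 24 and 13.9 CPM in control and 13.8, 9.51 and 13.8 in palmitate. The groups did not overlap, but control 3 was barely above palmitate 1 and 3. Leaving out the Mxd1 start, groups were separate, palmitate above or below, in 6 and 2 of the 17 regions, and in 17.9% and 21% of all tested regions. The log2 fold change was -0.69 ± 0.23 (SE; edgeR adjusted p 0.0276). The call was lost with trended offsets (-0.51, adjusted p 0.181), in the DESeq2 Wald test (0.129), and without control 1 (0.0819), control 2 (0.118), palmitate 2 (0.156) or palmitate 3 (0.0532).

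MXD4 and MXI1 are repressors of the same family as MXD1. The start of Mxd4 on chromosome 5 (34187682 to 34188206) rose from 260, 253 and 275 CPM to 308, 309 and 322. The palmitate libraries lay above the controls, by less than at Mxd1. The log2 fold change was 0.25 ± 0.061 (SE; edgeR adjusted p 0.00284). The call held without each library in turn, but was lost with total counts (0.0751) and with trended offsets (-0.08 ± 0.053, SE, adjusted p 0.419).

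Mxi1 on chromosome 19 had no region at either end of its span and 2 inside it. The region over its internal RefSeq starts (53329236 to 53329724) had 48.4, 49.6 and 52.7 CPM in control and 65.4, 56.7 and 58.3 in palmitate. The palmitate libraries were all above the controls, and the log2 fold change of 0.25 ± 0.11 (SE) did not pass (edgeR adjusted p 0.0911). The other region (53314040 to 53314512), which overlaps the non-coding gene Gm30541, went from 47.7 ± 2.45 to 52.8 ± 2.18 CPM and did not pass (edgeR adjusted p 0.392). With trended offsets the region over the internal starts of Mxi1 had a log2 fold change of 0.15 (adjusted p 0.446).

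MNT is the member that represses in cycling and resting cells alike, and its gene on chromosome 11 (74830806 to 74845725) held 3 strong regions. The start (74829968 to 74830961) rose from 217, 206 and 212 CPM to 241, 242 and 260. The palmitate libraries lay above the controls, and the log2 fold change was 0.23 ± 0.064 (SE; adjusted p 0.00896, edgeR). The call was lost without palmitate 3 (0.0717), with total counts (0.17) and with trended offsets (-0.07 ± 0.057, SE, adjusted p 0.492).

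The region 1.06 kb inside Mnt (74831862 to 74832490) had 172, 117 and 152 CPM in control and 171, 180 and 167 in palmitate. Control 1 lay within the palmitate range and control 2 far below it. The log2 fold change of 0.25 ± 0.089 (SE) passed narrowly (edgeR adjusted p 0.0401). Without control 2 the log2 fold change was 0.10 and the call was lost (edgeR adjusted p 0.327). The call was also lost without control 3 (adjusted p 0.0602) or palmitate 1, 2 or 3 (0.0798, 0.13 and 0.0778). The region passed in 5 of 15 other fits, and its log2 fold change was -0.01 with trended offsets (adjusted p 0.971). The region 6.91 kb inside Mnt (74837715 to 74838757) went from 186 ± 22.4 to 207 ± 16.9 CPM and did not pass (edgeR adjusted p 0.112), except without control 1 (0.0268). Its log2 fold change was 0.17, and -0.11 with trended offsets. Control 2 was the lowest control in all 3 Mnt regions.

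MLX and MGA link the network to sugar sensing and to Polycomb repression. The start of Mlx on chromosome 11 (101086979 to 101087500), within 1 kb of the end of Coasy as well, had 38.3, 38.3 and 28.6 CPM in control and 41, 39.4 and 45.2 in palmitate. The palmitate libraries lay just above the controls, and the log2 fold change of 0.26 ± 0.14 (SE) did not pass (edgeR adjusted p 0.179). Mga on chromosome 2 had a region at the lower-coordinate end of its span (119872502 to 119873403; 15.9 ± 2.5 CPM in control and 18.3 ± 1.74 in palmitate) and a stronger one over its RefSeq start, 24.4 kb inside (119896872 to 119897670; 51.2 ± 8.08 and 54 ± 3.4 CPM). Neither passed (edgeR adjusted p 0.485 and 0.616).

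**Figure D3:**
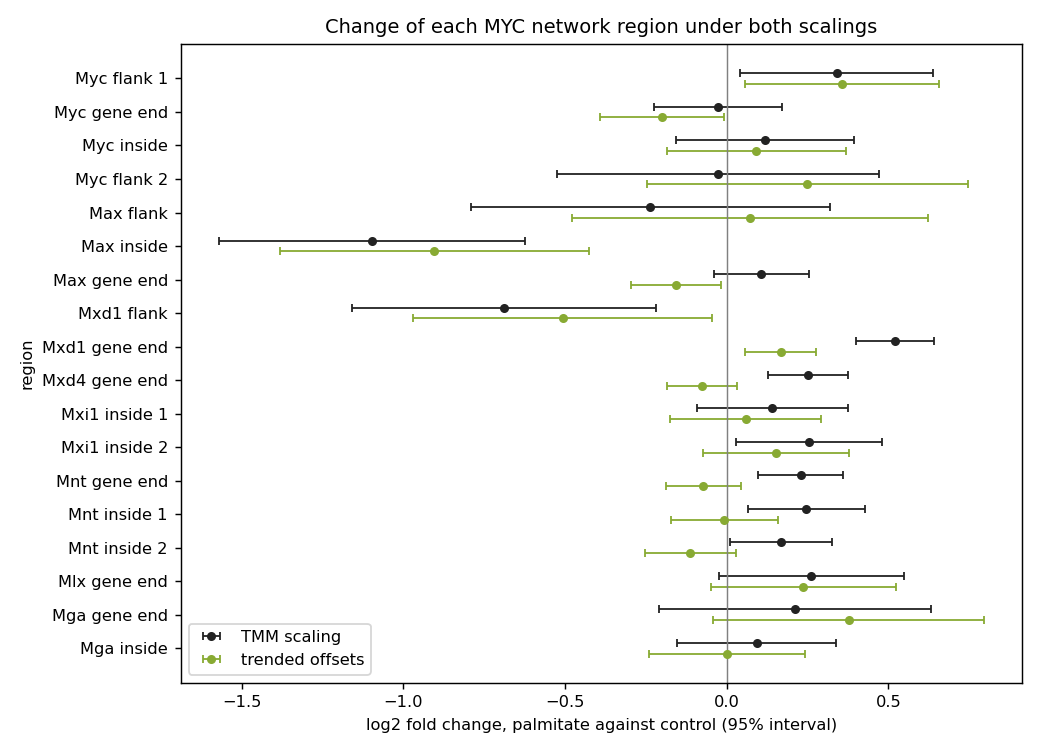
Log2 fold change of palmitate against control with its 95% interval for each of the 18 regions, with TMM scaling (black) and with trended offsets (green). The region inside Max lies below 0 in both, the interval at the Myc gene end spans 0 with TMM and lies just below 0 with trended offsets, and the strong regions of Mxd1, Mxd4 and Mnt shift left with trended offsets.

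The rest of the pathway was read at the gene end of each gene, in lists chosen with earlier results of these data known. Of 83 genes 72 had a gene-end region, of which 31 were higher and 1 lower (edgeR, adjusted p threshold 0.05). Over all gene ends 25% were higher and 2.47% lower. With trended offsets 1 of the 72 was higher and 1 lower, where 2.53% and 1.49% of all gene ends were. Strength differed here too, since 36 of the 72 belonged to the top decile of strength, and these held 28 of the 31 higher ones.

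Among other network genes 1 of 4 was higher. This was Mlxip, the glucose-responsive partner of MLX, which went from 117 ± 13.8 to 141 ± 2.2 CPM (log2 fold change 0.28 ± 0.082, SE; edgeR adjusted p 0.0134). Mycn, the MYC paralogue of progenitor cells, stood at 19.9 ± 1.37 and 14.9 ± 1.64 CPM and did not pass (edgeR adjusted p 0.137). Of 19 cofactors of MYC or of the repressors 5 were higher and 14 did not pass, with a median log2 fold change of 0.20. Examples are Actl6a, an actin-like subunit of chromatin remodellers (257 ± 10.2 to 332 ± 11.7 CPM), and Cdk9, the kinase that releases paused polymerase (145 ± 7.23 to 185 ± 8.71 CPM). With trended offsets both had log2 fold changes below 0.1, 0.04 and 0.09. Ep400, a remodeller of the TIP60 complex, was named after its value was seen. Its log2 fold change was 0.14 with TMM, which did not pass (edgeR adjusted p 0.0846), and -0.22 with trended offsets, which passed as lower.

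Genes that set the stability of the MYC protein were higher in 9 of 13 and lower in 0, with a median log2 fold change of 0.25, against 0.14 over all gene ends. Gsk3b, the kinase whose mark on MYC leads to its degradation, went from 499 ± 22.9 to 667 ± 9.4 CPM (0.42 ± 0.054, SE; edgeR adjusted p 3.58e-06). Usp22, a deubiquitinase, went from 387 ± 4.98 to 507 ± 14.9 CPM (0.39 ± 0.055, SE; edgeR adjusted p 9.18e-06). With trended offsets 0 of 13 passed in either direction and the median was 0.01.

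MYC targets were higher at 15 of 33 gene ends and lower at 1, where 25% and 2.47% of all gene ends were. With trended offsets 1 of the 33 was higher and 0 lower, at a median log2 fold change of 0.02. Fbl, the fibrillarin methyltransferase of ribosomal RNA, went from 148 ± 1.61 to 224 ± 20.7 CPM (0.60 ± 0.072, SE; edgeR adjusted p 1.55e-06), in a region also at the end of Dyrk1b. Its log2 fold change with trended offsets was 0.32, which passed. Ncl, the nucleolar protein nucleolin, went from 295 ± 21.9 to 376 ± 3.35 CPM, but had a log2 fold change of 0.01 with trended offsets. The lower one was Tert, the telomerase subunit, from 38.2 ± 10.2 to 26.6 ± 2.73 CPM (-0.53 ± 0.17, SE; edgeR adjusted p 0.0177). Its value with trended offsets was -0.52, which did not pass (0.0546). Of 3 genes that MYC represses through ZBTB17, Cdkn1c, an inhibitor of cyclin-dependent kinases, was higher (41.1 ± 3.26 to 55.1 ± 6.47 CPM; edgeR adjusted p 0.0107), with 0.077 under trended offsets.

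**Figure D4:**
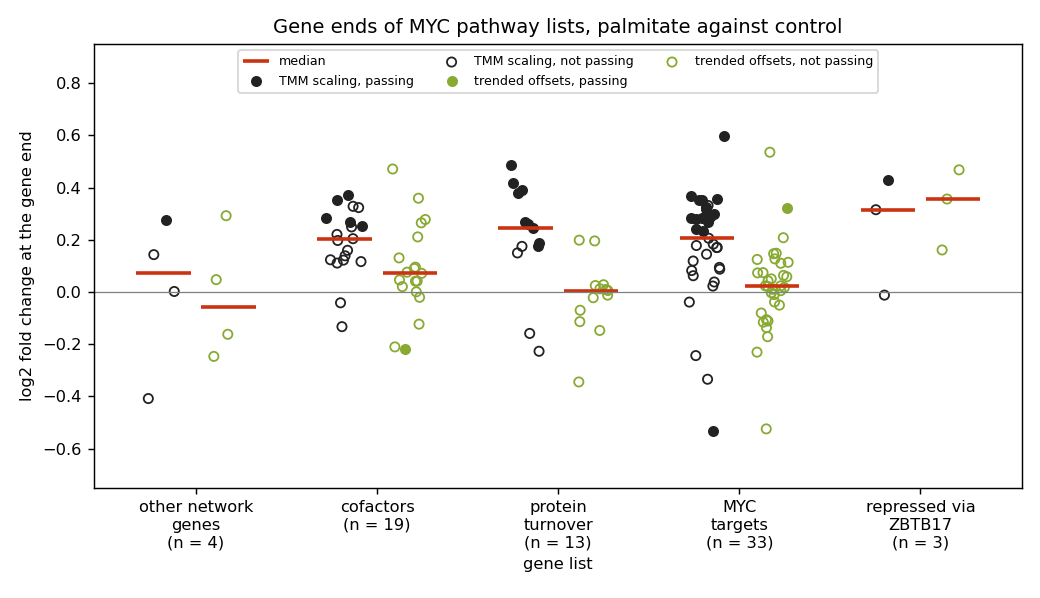
Log2 fold change (palmitate against control) at the gene end of each gene of the 5 lists, with TMM scaling (black) and trended offsets (green). Filled circles passed the test, open ones did not, red bars are medians. With trended offsets the medians of the cofactor, turnover and target lists move toward 0 and nearly all circles are open.

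The sequence the network binds was also read over all promoters. Of tested regions that overlapped a RefSeq start window, 1003 had CACGTG in that window and 7078 did not. The regions with it were higher in 31.3% and lower in 0.897%, and those without it in 26% and 1.75%. The median log2 fold changes were 0.18 and 0.15 (quartiles 0.03 to 0.30 and -0.02 to 0.27), so the distributions overlapped almost wholly. The median control levels were 55.2 and 48.5 CPM. With trended offsets 2.49% and 2.35% were higher and 0.897% and 1.41% lower. The network's own start regions with CACGTG had log2 fold changes from 0.11 (Max) to 0.26 (Mlx), and from -0.16 (Max) to 0.24 (Mlx) with trended offsets. The start of Mxd1, whose window holds no E-box, was above this range with TMM (0.52) and within it with trended offsets (0.17). The other start regions without CACGTG, those of Mxi1 and Mga, had 0.25 and 0.09 with TMM. With trended offsets they had 0.15 and 0.0003.

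Beyond the 50 kb limit, the neighbourhood of Myc holds many elements, most of them weaker than the Myc gene end (85.5 CPM in control). The outermost region taken was the one at 47.4 kb from Myc, and the nearest one left out lay 77.1 kb from Max (29 and 16.8 CPM in control and palmitate). The next lay 89 kb from Myc (18.7 ± 1.55 and 11.4 ± 1.76 CPM). In all, 34 tested regions, 89 to 843 kb away, had Myc as their nearest protein-coding gene end. They were looked at together after their values had been seen and are described without a test of their own. Log2 fold changes were negative in 30 of the 34, with a median of -0.52, against -0.25 over all intergenic regions, and 14 passed as lower and 0 as higher, while 18.4% of all intergenic regions were lower. Negative values were not particular to Myc. Regions 77.1, 97.7, 117 and 123 kb from Max had log2 fold changes of -0.78, -0.56, -0.26 and -0.46. With trended offsets 8 of the 34 were lower, at a median of -0.33 (all intergenic -0.03), with 6.03% of intergenic regions lower. On the higher-coordinate side 27 of 28 were negative (median -0.57) and 13 lower, and on the other side 3 of 6 (median -0.02) and 1 lower; the difference between the sides was not tested. Leaving out 1 library, the lower count ranged from 8 (without control 3) to 17 (without control 2) with TMM, and from 3 (without control 3) to 12 (without control 2) with trended offsets.

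Among these, 10 regions overlapped Pvt1, the non-coding gene next to Myc, and 4 of them passed as lower. The one 199 kb from Myc (62189647 to 62190741) went from 54.3 ± 6.33 to 27.9 ± 6.08 CPM, and the one 155 kb away (62145072 to 62145484) from 30.4 ± 4.05 to 14.9 ± 2.1. The strongest, 179 kb away (62169156 to 62170153), stood at 140 ± 7.65 and 132 ± 4.91 CPM, above the Myc gene end (85.5 and 83.4). It did not pass with TMM, and passed as lower with trended offsets (log2 fold change -0.32). A nearest gene end does not make Myc the target of these elements, and the counts give no measure of Myc transcription.

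**Figure D5:**
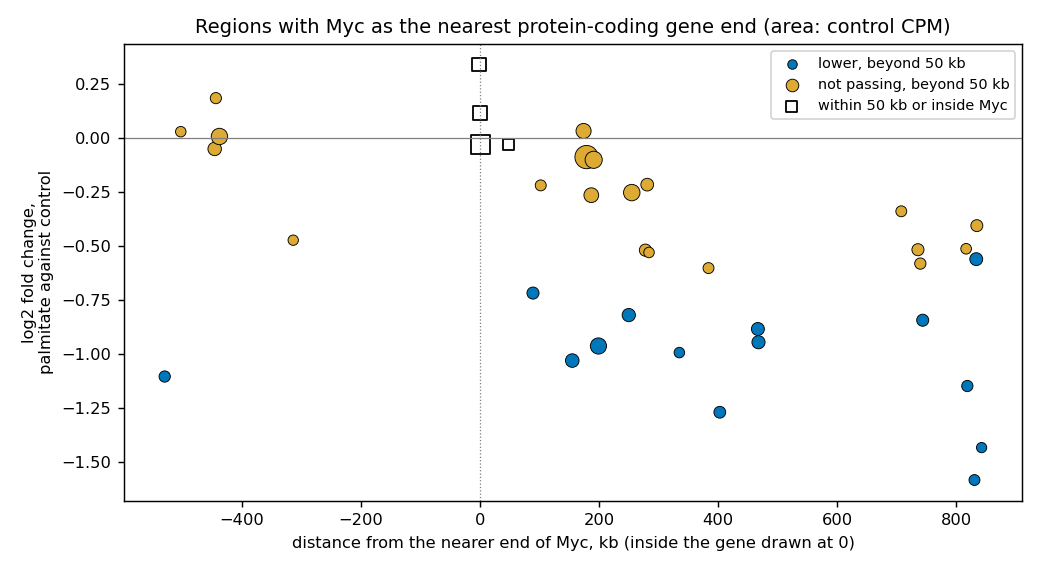
Log2 fold change (palmitate against control, TMM scaling) against distance from the nearer end of Myc in kb, negative toward lower coordinates, with symbol area growing with control CPM. Squares are the 4 regions inside Myc or within 50 kb, circles the 34 farther ones (blue where lower, yellow where not passing). The squares lie between -0.03 and 0.34 while most circles lie below 0.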

How the data were processed

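ATAC-seq libraries of 3 palmitate and 3 control samples were compared. The tools named per the submitters' processing notes are MACS2 (2.2.8), Picard (2.23.8), Bowtie2 (2.5.1), Trim Galore (0.6.10) and edgeR (3.40.2), with the build mm10; how reads were shifted, regions merged and reads counted is not stated there. The matrix deposited by the authors holds raw counts per region. The peak lists deposited by the authors hold a score per peak, 1 list per library.

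The whole matrix was fitted with glmQLFit and glmQLFTest of edgeR (4.0.16, under R 4.3.3), two-sided, with TMM factors of 0.953 to 1.05, the filterByExpr filter and Benjamini-Hochberg adjustment over 24316 regions. An SE was derived as |log2 fold change| over the root of F. Alternatives were other scaling factors and filters, trended offsets (loess span 0.3, pseudocount 0.5), DESeq2 1.42.0, limma-voom 3.58.1, a replicate block and leaving out each library; trended offsets with a library left out were added after seeing the data. Regions were placed on RefSeq protein-coding spans (GRCm38.p6, the assembly of mm10), with coordinates as the matrix gives them. The members and gene lists were chosen with earlier results of these data known. Each gene's strongest gene-end region and regions that passed are described in full, the remaining ones in short. Up to 4 genes were named per list, those with the smallest p and at most 2 per direction.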

Additional observations from a re-analysis of the deposited data

How the results depend on the processing

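The count of network regions called higher, 4 in the fit reported with the Mxd1 start counted, was 1 with total counts and 0 with trended offsets, and 2 to 5 without 1 library (0 to 1 with trended offsets and a library left out). The 1 with total counts was the Mxd1 start, and so was the 1 in trended fits with a library left out. Without that start these counts were 0, and all network counts and medians in this paragraph include it. The lower count, 2, was 1 with trended offsets, 1 by DESeq2's Wald test and 1 in regions of all 6 peak lists, and 1 to 2 without 1 library (0 to 2 trended). Their median log2 fold change, 0.15, was 0.185 with DESeq2 size factors, 0.0974 with upper-quartile factors, 0.0396 with total counts, 0.0294 with trended offsets, 0.121 with at least 20 reads in 3 libraries, 0.184 by DESeq2's Wald test and 0.113 to 0.225 without 1 library. Over all regions the higher and lower calls, 2894 and 3078, were 1282 and 4331 with total counts, 514 and 1069 with trended offsets, 1888 and 1236 by DESeq2's Wald test, and 2066 to 2774 and 1871 to 3391 without 1 library. Of list genes 31 were higher, and 1 with trended offsets. With trended offsets log2 fold changes turned negative at the Mxd4 start (-0.0762; -0.0949, -0.073 and -0.0618 without controls 1, 2 and 3, -0.0801, -0.0554 and -0.0902 without palmitate 1, 2 and 3), at the Mnt start (-0.0721; in the same order -0.0659, -0.0633, -0.0896, -0.0678, -0.0442 and -0.1019) and 1.06 kb inside Mnt (-0.0073; -0.1343 without control 2, -0.0142 without palmitate 1, -0.0262 without palmitate 2, positive without the others). Among regions that did not pass, the sign also turned to negative at the Max start (-0.1577) and 6.91 kb inside Mnt (-0.1121), and to positive 47.4 kb from Myc (0.2496) and beside Max (0.0727). The cause was not tested. Deviations from the group means had correlations of 0.000449, -0.104 and -0.027 between same-numbered libraries, and of -0.0671 to 0.0921 between the others. With 3 libraries per group these values cannot tell whether the samples were paired. A replicate block gave 4 higher and 2 lower network regions, a median of 0.15, and 2712 and 2821 calls over all regions. The weakest network regions held 18 to 60 counts per library, which limits the size of change that can pass.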

Other observations

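The peak lists held 8 peaks by the same rule that lie outside the count matrix, 3 near or in Mxi1 and 5 around Myc. A peak of control 1 and one of palmitate 1, just beyond the region at 47.4 kb, overlapped each other. The controls held 2, 1 and 2 of them, and each palmitate library 1. Their scores ranked at or below the 28.7th percentile of their own list, the highest belonging to a peak in control 2 between Myc and the region at 47.4 kb. In all, the lists held 17, 19 and 19 peaks of the network in control and 17, 19 and 18 in palmitate.

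Over the 6 libraries, the gene-end regions with a profile most like that of the Myc gene end were those of Mgme1 and Snx5 (1 region), Cdc37 and Nfkbil1, with Pearson r of log2 CPM of 0.9938, 0.9878 and 0.9851, and for Mxd1 those of Cdk8, Fam241a and of Ccdc151 and Prkcsh (1 region), with r of 0.9968, 0.996 and 0.9955. With r above 0.95, 464 other gene ends matched Mxd1 and 11 matched Myc. The points share library, depth and, for Mxd1, the difference between the groups.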
